A study of Mus musculus with 4 samples.

Results

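The BCL2 family was followed gene by gene in mouse embryonic stem cells (ESCs) with and without knockdown of Ythdf2. The 10 genes described are the pro-survival genes Bcl2, Bcl2l1, Bcl2l2 and Mcl1, the multidomain pro-death genes Bak1 and Bok, and the BH3-only genes Bcl2l11, Bad, Bid and Bmf. They were taken by gene symbol out of 49997 genes in the count table, as the members of the family other than the p53 targets Bax, Bbc3 and Pmaip1, and all 10 passed the filter on low counts.

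All 4 libraries were poly(A)+ RNA of E14 ESCs, a pluripotent line from the early mouse embryo, grown with LIF and infected with a lentivirus that carries a short hairpin RNA (shRNA), TagRFP and puromycin resistance. The 2 shScramble libraries carried a scrambled hairpin and the 2 shYthdf2 libraries a hairpin against Ythdf2. Per the study's methods the lines were stable lines kept after puromycin selection, and the ESCs carried a tdTomato reporter driven by the MERVL promoter. The methods list 2 hairpins against Ythdf2, and the labels name neither the hairpin used here nor whether a line was a clone or a pool. The study calls its replicates independent, and the labels give only a replicate number and no batch. YTHDF2 is a cytoplasmic reader of N6-methyladenosine (m6A) in mRNA and recruits the machinery that shortens poly(A) tails, so the comparison asks which transcripts change in level when it is depleted.

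BCL2 family proteins decide at the outer mitochondrial membrane whether a cell enters the intrinsic pathway of apoptosis. Multidomain pro-death proteins such as BAK form pores that release cytochrome c, pro-survival proteins such as BCL-XL (the product of Bcl2l1) and MCL1 hold them in check, and BH3-only proteins bind the pro-survival proteins or act on the pore formers directly. Pluripotent stem cells are known to die readily after DNA damage, and MCL1 and BCL-XL are known as survival factors in them.

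The feature that joins the family is the BH3 region, the helix through which members bind each other. The stretch of coding sequence for it is shown for each member because both sides of the family meet there. Each line holds 30 bases of the coding strand, with the 18 bases of the core in capitals, read from the GENCODE M21 transcripts of the GRCm38 (mm10) build.
Bcl2, chr1:106712578-106712607, minus strand: ctgaccCTCCGCCGGGCTGGGGATgacttc
Bcl2l1, chr2:152829700-152829729, minus strand: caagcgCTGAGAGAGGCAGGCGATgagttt
Bcl2l2, chr14:54884511-54884540, plus strand: caagccATGCGGGCTGCTGGAGACgagttt
Mcl1, chr3:95659430-95659459, plus strand: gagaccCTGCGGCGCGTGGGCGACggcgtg
Bak1, chr17:27022534-27022563, minus strand: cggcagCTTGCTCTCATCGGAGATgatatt
Bok, chr1:93686651-93689167, plus strand, over 2 exons: acagtgCTGCTGCGCTTGGGAGATgagctg
Bcl2l11, chr2:128147144-128147173, plus strand: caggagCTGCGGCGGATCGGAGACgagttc
Bad, chr19:6950786-6950815, plus strand: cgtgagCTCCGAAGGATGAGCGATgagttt
Bid, chr6:120897292-120897321, minus strand: agacatCTCGCCCAAATAGGCGATgagatg
Bmf, chr2:118545103-118545132, minus strand: agaaagCTTCAGTGTATTGCAGACcagttc

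The pattern used to find these stretches was written from the known BH3 regions, so its presence in all 10 members is no finding. It occurred exactly 1 time in each member and at least 1 time in 3.68% of 21743 coding genes. The core began with the codon CTN in 9 members and with ATG in Bcl2l2, and it ended with GAT in 6 members and GAC in 4. The codon before the last was GGN in 8 members, Bad and Bmf being the exceptions.

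Ythdf2 fell in the libraries that carried the hairpin against it. Ythdf2 was measured at 93.4 and 87.6 CPM (reads of the gene per 1000000 reads of the library, with library sizes scaled by TMM) in shScramble replicates 1 and 2, and at 31.8 and 30.2 CPM in shYthdf2 replicates 1 and 2. Its level in shYthdf2 was 34.2% of that in shScramble, a log2 fold change of -1.55 (SE 0.11 by edgeR, adjusted p = 0.000693). Libraries held 31113006 to 36422510 reads, and 3 reads, the limit that a count of 0 allows, correspond to 0.0833 to 0.0952 CPM. Most fragments gave a pair of reads, so in fragments this limit lies higher. The 8 ESC markers examined were present in every library, each at 244 CPM or more, and sum to 5986 to 6098 CPM in shScramble and 5243 to 5684 CPM in shYthdf2. One of them, Tdgf1, passed the test as lower (log2 fold change -0.47, SE 0.11 by edgeR, adjusted p = 0.0411), and Nanog was at 75.3% of its shScramble level (-0.41, adjusted p = 0.0594 by edgeR). The part of this difference in the results for the members was not tested.

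Among the 10 genes, Bcl2l1 rose after Ythdf2 knockdown and no other member passed the test. Bcl2l1, which encodes the anti-apoptotic BCL-XL, reached 1.44-fold of its level in shScramble (95% interval 1.20 to 1.73). Bad, a BH3-only antagonist of BCL-XL, lay 1.41-fold higher but did not pass the adjusted threshold. Mcl1, Bak1 and Bid, the most abundant members per kb of all their exons joined, differed by 1.07-fold or less between the group estimates.

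By edgeR at an adjusted p under 0.05, 1 of 10 members was higher in shYthdf2, while 2.43% of all 18341 genes tested were. By the same test 0 of 10 members were lower, while 1.49% of all genes were, and 0 were lower at an unadjusted p under 0.05. DESeq2 also called 1 member higher and 0 lower (5.55% and 4.22% of all genes it tested), as did limma-voom (2.01% and 1.38% of all genes). At an unadjusted p under 0.05, 2 members (Bcl2l1 and Bad) were higher and 0 lower, while 11.0% and 9.80% of all genes were. The median log2 fold change of the 10 members was 0.047, beside 0.0019 over all genes tested, and the median size of the change without its sign was 0.15, beside 0.25 over all genes. Both shYthdf2 libraries lay above both shScramble libraries for 2 members, Bcl2l1 and Bad, and below them for 2 members, Bcl2 and Bcl2l11. Over all genes tested these shares were 26.2% and 25.5%, so 2 of 10 in either direction is near the background.

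**Figure D1:**
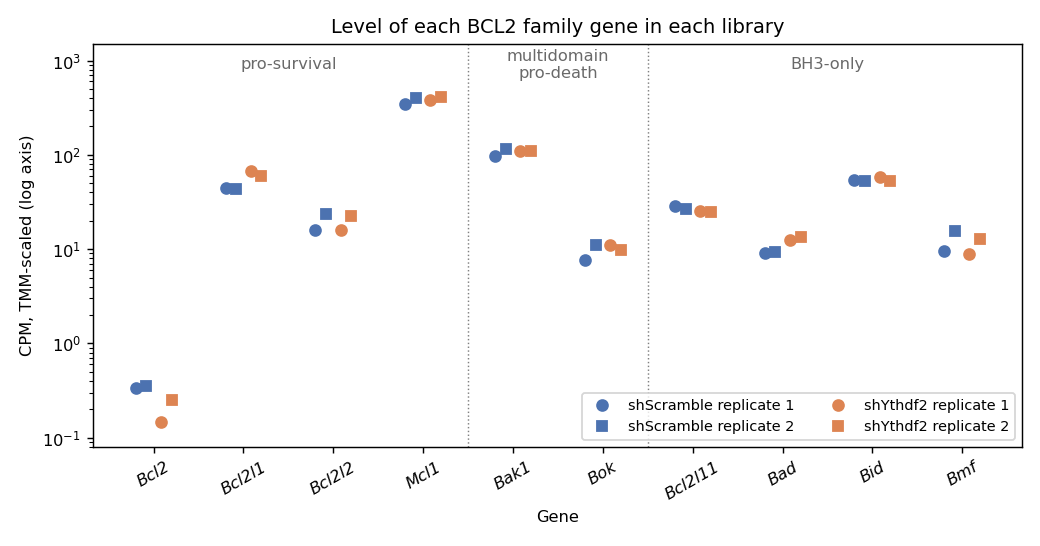
Points give the TMM-scaled CPM of each gene in each library on a log axis, with shScramble in blue, shYthdf2 in orange, replicate 1 as circles and replicate 2 as squares. The shYthdf2 points of Bcl2l1 (59.8 and 67.7 CPM) and Bad (12.5 and 13.5 CPM) lie above both shScramble points, whereas the squares lie above the circles in both groups for Bcl2l2 and Bmf.

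**Figure D2:**
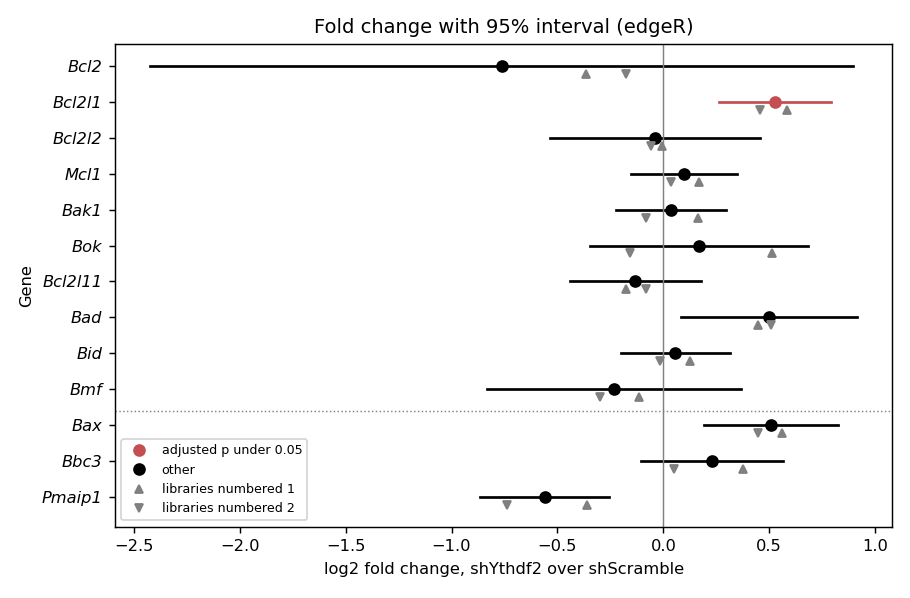
Circles give the edgeR log2 fold change of shYthdf2 over shScramble and lines its 95% interval, and grey triangles give the difference between the 2 libraries of the same replicate number on log2(CPM + 0.5). Bcl2l1, at 0.53, is the member whose adjusted p is under 0.05 (red), and the interval of Bad (0.08 to 0.91) lies above 0 without passing that threshold.

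Among the pro-survival genes, Bcl2l1 (chromosome 2, 152758732 to 152833803, minus strand) was measured at 45.0 and 43.4 CPM in shScramble and at 67.7 and 59.8 CPM in shYthdf2. Both shYthdf2 libraries lay above both shScramble libraries, and the gap between the groups exceeded the spread within either. The group means were 44.2 ± 1.14 and 63.7 ± 5.56 CPM (SD, n = 2 each), and the log2 fold change was 0.53 (SE 0.12 by edgeR, adjusted p = 0.0416). The difference was 0.58 between the libraries numbered 1 and 0.46 between those numbered 2 on log2(CPM + 0.5). Bcl2l1 passed in 11 of 13 other settings of the fit, with log2 fold changes between 0.43 and 0.61. It did not pass without shScramble replicate 2 (0.50, edgeR adjusted p = 0.114) or without shYthdf2 replicate 1 (0.43, edgeR adjusted p = 0.0738).

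The Bcl2l1 count sums over the transcripts of the gene, so its long product BCL-XL and the short pro-death product made by alternative splicing are not told apart. No stretch of 150 bases of its transcript occurred in a transcript of another gene. Counts of reads in bulk RNA also do not separate more RNA per cell from more cells of a kind that express the gene. The 6 markers of the 2-cell-like state (Zscan4c, Zscan4d, Zscan4f, Usp17la, Tcstv3, Duxf3), a rare state of ESCs resembling the early embryo, sum to 23.3 and 35.2 CPM in shScramble and to 43.6 and 112 CPM in shYthdf2. The shYthdf2 library with the larger sum, replicate 2, had the lower Bcl2l1 level of the pair. The part of these cells in the difference was not tested.

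Mcl1 (chromosome 3, 95656944 to 95663179, plus strand) encodes a short-lived pro-survival protein. It was measured at 344 and 402 CPM in shScramble and at 386 and 412 CPM in shYthdf2. The lower shYthdf2 library lies below the higher shScramble library, so the groups overlap. The log2 fold change was 0.10 (SE 0.11 by edgeR, adjusted p = 0.669), and its 95% interval of 0.901- to 1.27-fold leaves out a change of the size estimated for Bcl2l1.

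Bcl2l2 (chromosome 14, 54883366 to 54890858, plus strand), which encodes the pro-survival protein BCL-W, was measured at 16.1 and 23.3 CPM in shScramble and at 16.0 and 22.4 CPM in shYthdf2. Replicate 2 was the higher library in both groups, by 0.52 in shScramble and 0.47 in shYthdf2 on log2(CPM + 0.5), and the groups overlap nearly in full. The log2 fold change was -0.04 (SE 0.22 by edgeR, adjusted p = 0.950), with a 95% interval of 0.691- to 1.37-fold. In GENCODE, 13.3% of the 150-base stretches of the Bcl2l2 transcript also occur in Gm20521, a transcript annotated across Bcl2l2 and its neighbour Pabpn1. In the RefSeq exons used for counting, Bcl2l2 shared 0 bases with another gene. Bad (28.4%), Bak1 (6.26%) and Bcl2 (4.96%) also had GENCODE stretches that occur in transcripts of other genes.

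Bcl2 (chromosome 1, 106538176 to 106714290, minus strand), the founding member of the family, was barely present in these cells. It had 12 and 11 reads in shScramble and 5 and 9 reads in shYthdf2, which is 0.33 and 0.349 CPM against 0.146 and 0.251 CPM. Both shYthdf2 libraries were lower, but the fitted 95% interval ran from 0.187- to 1.86-fold (log2 fold change -0.76, SE 0.74 by edgeR, adjusted p = 0.612). No difference between the groups was detected at this depth.

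Neither multidomain pro-death gene passed the test. Bak1 (chromosome 17, 27019812 to 27028627, minus strand), the pore former BAK, was measured at 97.6 and 116 CPM in shScramble and at 109 and 110 CPM in shYthdf2. Both shYthdf2 libraries fall between the shScramble libraries, and the log2 fold change was 0.04 (SE 0.12 by edgeR, adjusted p = 0.902, 95% interval 0.856- to 1.23-fold). Bok (chromosome 1, 93685575 to 93695770, plus strand), a relative of BAX and BAK, was measured at 7.58 and 11.0 CPM in shScramble and at 11.0 and 9.86 CPM in shYthdf2. The groups overlap, and the 2 pairs of libraries of the same number differed in opposite directions, by 0.51 and by -0.16 on log2(CPM + 0.5). The log2 fold change of Bok was 0.17 (SE 0.23 by edgeR, adjusted p = 0.738), and its interval of 0.787- to 1.60-fold is wide enough to include the change seen for Bcl2l1.

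Among the 4 BH3-only genes, 0 passed the edgeR test in either direction, and 0 were called by DESeq2 or limma-voom. At an unadjusted p under 0.05 (edgeR), 1 (Bad) was higher and 0 lower, beside 11.0% and 9.80% of all genes. Bad (chromosome 19, 6941861 to 6951905, plus strand) encodes a protein that binds BCL-XL and BCL2 and is inactivated by phosphorylation downstream of growth factors. It was measured at 9.05 and 9.33 CPM in shScramble and at 12.5 and 13.5 CPM in shYthdf2. Both shYthdf2 libraries were higher by more than the spread within the groups, and the pairs of the same number differed by 0.45 and 0.51 on log2(CPM + 0.5). The log2 fold change was 0.50 (SE 0.19, 95% interval 0.08 to 0.91), with an edgeR adjusted p of 0.166, which does not pass. Bad passed in 1 of 13 other settings, with log2 fold changes between 0.45 and 0.55.

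The Bad count carries a limit of its own. Of its exon bases, 34.0% lie under exons of Gpr137 on the opposite strand, and reads over both genes were left out because the counting did not use strand. Gpr137 itself was measured at 13.6 and 12.7 CPM in shScramble and at 17.7 and 16.6 CPM in shYthdf2 (log2 fold change 0.39, edgeR adjusted p = 0.228). Reads from either gene outside the shared bases are kept, and the part of Gpr137 in the Bad difference was not tested.

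Bcl2l11 (chromosome 2, 128126038 to 128162547, plus strand) encodes BIM, a BH3-only protein that binds all pro-survival members. It was measured at 28.8 and 26.5 CPM in shScramble and at 25.4 and 25.0 CPM in shYthdf2. Both shYthdf2 libraries were lower, yet the log2 fold change was -0.13 (SE 0.14 by edgeR, adjusted p = 0.641) with an interval of 0.736- to 1.13-fold. Its groups being apart is a pattern that 25.5% of all genes show.

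Bid (chromosome 6, 120893119 to 120917062, minus strand) encodes the protein that caspase-8 cleaves to link death receptors to mitochondria. It was measured at 53.6 and 53.2 CPM in shScramble and at 58.6 and 52.6 CPM in shYthdf2. Only shYthdf2 replicate 1 stood above the shScramble pair, and the log2 fold change was 0.06 (SE 0.12 by edgeR, adjusted p = 0.834, 95% interval 0.869- to 1.24-fold). Bmf (chromosome 2, 118528757 to 118549686, minus strand), a BH3-only protein held by the actin-linked motor myosin V, was measured at 9.58 and 15.7 CPM in shScramble and at 8.80 and 12.7 CPM in shYthdf2. Replicate 2 was higher in both groups, by 0.69 and 0.50 on log2(CPM + 0.5), and the groups overlap. The log2 fold change of Bmf was -0.23 (SE 0.27 by edgeR, adjusted p = 0.678, 95% interval 0.562- to 1.29-fold).

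For Bcl2l2 and Bmf, differences between replicates were larger than the difference between groups in both shScramble and shYthdf2, and had the same direction in both. Bok differed as much between the shScramble replicates (0.51) but by -0.15 between the shYthdf2 replicates. Replicate differences also exceeded the group difference for Bak1 (0.25) and Mcl1 (0.23) in shScramble alone and for Bid (-0.15) in shYthdf2 alone. Bcl2l1 and Bad varied within a group by 0.18 or less in size, and so did Bid and Bcl2l11. The labels name no batch for the replicate numbers.

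**Figure D3:**
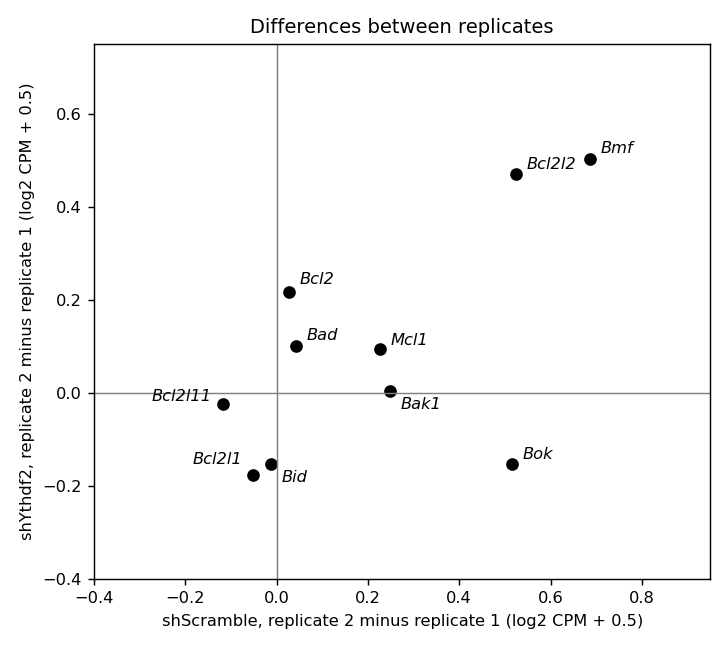
Each point is a member, with the difference of replicate 2 minus replicate 1 on log2(CPM + 0.5) in shScramble on the horizontal axis and in shYthdf2 on the vertical axis. Bmf (0.69 and 0.50) and Bcl2l2 (0.52 and 0.47) lie far from the origin in the same direction in both groups. Bcl2l1, Bad, Bid and Bcl2l11 lie nearer to it.

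Levels were next compared between the genes as CPM per kb of the exon union, the length given in the count table. Mcl1 led the order in shScramble at 70.8 ± 7.82 CPM per kb (SD, n = 2), followed by Bak1 at 52.8 ± 6.42 and Bid at 13.0 ± 0.0766 CPM per kb. Bad (6.04 ± 0.130), Bcl2l1 (6.03 ± 0.156) and Bok (5.97 ± 1.57 CPM per kb) followed, with overlapping libraries between neighbours. Bcl2l2 (3.10 ± 0.806), Bcl2l11 (2.46 ± 0.145) and Bmf (2.45 ± 0.839 CPM per kb) likewise overlapped their neighbours, and Bcl2 stood last at 0.0464 ± 0.00153 CPM per kb. All other neighbours in the order were apart.

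In shYthdf2 the order was the same but for Bcl2l1, at 8.69 ± 0.758 CPM per kb, which stood just above Bad, at 8.54 ± 0.441 CPM per kb. These neighbours overlapped, and both stood apart from Bok at 6.70 ± 0.528 CPM per kb. Mcl1 was at 75.8 ± 3.54 and Bak1 at 54.1 ± 0.127 CPM per kb. The exon union of Bid includes 1893 bases on an extra contig of the build, and with the chromosome alone its level was 23.9 CPM per kb in shScramble and 24.9 CPM per kb in shYthdf2, still in the place after Bak1. A union of exons can be longer than the transcripts a cell uses, and levels per kb are then too low. Examples are Bcl2l11, with 11212 bases, and Bcl2l1, with 7335 bases. The Bcl2l1 transcript chosen in GENCODE M21 had 702 coding bases and 1473 bases of 3′ UTR. The place of Bcl2l1 in the order, and its shares and ratios below, therefore depend on the length used.

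Among the 10 members, Mcl1 made up most of the pro-survival mRNA per length and Bak1 most of the pro-death mRNA. The pro-death share leaves out Bax, Bbc3 and Pmaip1. Per kb, Bax was 3.15 and 2.22 times as abundant as Bak1 in shScramble replicates 1 and 2. In shYthdf2 replicates 1 and 2 it was 4.15 and 3.20 times as abundant. Of the summed CPM per kb of the 4 pro-survival genes, Mcl1 held 88.5% ± 0.403 in shScramble and 86.6% ± 0.584 in shYthdf2 (SD, n = 2 each), and Bcl2l1 held 7.59% ± 0.999 and 9.95% ± 1.26. The ratio of Bcl2l1 to Mcl1 per kb was 0.0941 and 0.0776 for shScramble replicates 1 and 2. For shYthdf2 replicates 1 and 2 it was 0.126 and 0.104. The groups did not overlap, but 26.2% of single genes were likewise higher in both shYthdf2 libraries, and no such share was computed for ratios. This ratio uses the Bcl2l1 counts already described, so it is no separate result. Of the summed CPM per kb of the 6 pro-death genes, Bak1 held 63.8% ± 1.02 and 62.1% ± 0.488, and Bad held 7.34% ± 0.618 and 9.80% ± 0.560.

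The pro-survival sum was 74.0 and 85.9 CPM per kb in shScramble and 85.1 and 90.0 CPM per kb in shYthdf2. The pro-death sum was 76.5 and 88.9 CPM per kb in shScramble and 87.5 and 86.8 CPM per kb in shYthdf2. The log2 ratio of the sums was -0.05 in both shScramble libraries and -0.04 and 0.05 in the shYthdf2 libraries. Its mean went from -0.048 to 0.0054, a difference of 0.054 that rests mainly on shYthdf2 replicate 2, without which it was 0.0074. With 2 libraries per group the exact two-sided permutation test cannot go below p = 0.33, so no test of this ratio is given. The pro-death sum leaves out Bax, Bbc3 and Pmaip1, so the ratio does not describe the balance of the whole family. Bax alone had a mean of 140 CPM per kb in shScramble and 199 CPM per kb in shYthdf2. The ratio with these genes was not computed. A ratio of mRNA sums is not a ratio of proteins.

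**Figure D4:**
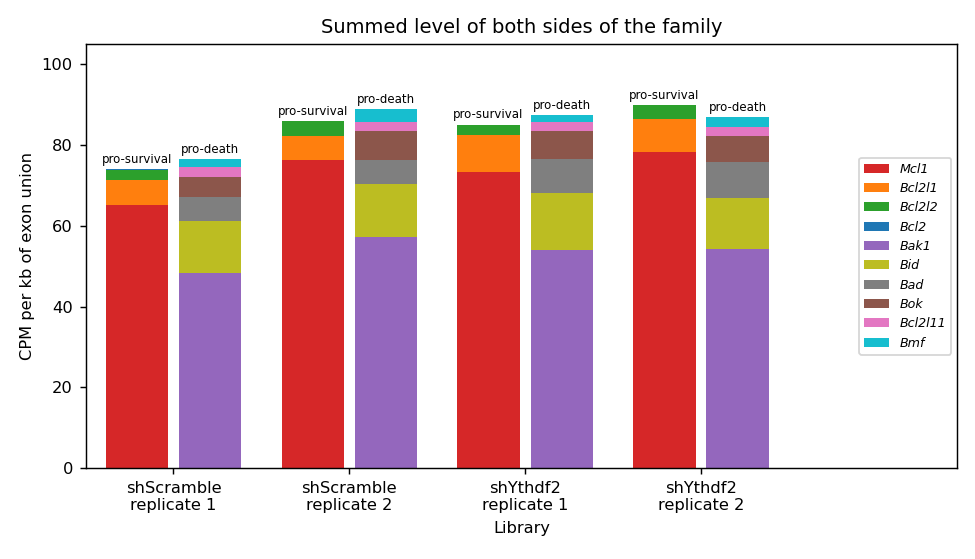
Stacked bars give the CPM per kb of exon union of the 4 pro-survival genes and of the 6 pro-death genes in each library, from 0. Mcl1 fills 86.2% to 88.8% of each pro-survival bar and Bak1 61.7% to 64.5% of each pro-death bar, while Bcl2 is too low to be seen. Bax, Bbc3 and Pmaip1 are not in the bars.

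The 3 p53-regulated relatives are given for comparison. Bax, the pore former that works beside BAK, was measured at 140 and 118 CPM in shScramble and at 207 and 160 CPM in shYthdf2, a log2 fold change of 0.51 (SE 0.14) that did not pass (edgeR adjusted p = 0.0797). It passed in 5 of 13 other settings, DESeq2 among them (adjusted p = 0.0129), and its estimate was 0.31 when shYthdf2 replicate 1 was left out and 0.68 when shYthdf2 replicate 2 was. Bbc3, which encodes the BH3-only protein PUMA, had a log2 fold change of 0.23 (SE 0.15 by edgeR, adjusted p = 0.431), which went to 0.0039 without shYthdf2 replicate 1 and to 0.42 without shYthdf2 replicate 2. Pmaip1, which encodes NOXA, a ligand of MCL1, had one of -0.56 (SE 0.14 by edgeR, adjusted p = 0.0523), and it passed in 8 of 13 other settings, DESeq2 among them (adjusted p = 0.00839). The estimate for Bcl2l1 (0.53) was near that for Bax, and the difference between these 2 genes was not tested. Per kb of exon union (923 bases for Bax and 7335 for Bcl2l1), Bax was 24.8 and 21.5 times as abundant as Bcl2l1 in shScramble. In shYthdf2 it was 24.3 and 21.3 times as abundant. A shorter length for Bcl2l1 would lower these ratios.

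Of 4 genes of the p53 pathway, Mdm2, the ubiquitin ligase of p53, and Ccng1, a p53 target, rose in shYthdf2. The log2 fold change was 0.59 for Mdm2 (SE 0.11 by edgeR, adjusted p = 0.0246) and 0.67 for Ccng1 (SE 0.12 by edgeR, adjusted p = 0.0192). Cdkn1a, which encodes the cell cycle inhibitor p21, had a log2 fold change of 0.43 (edgeR adjusted p = 0.172), passing in 4 of 13 other settings and lying at 0.18 when shYthdf2 replicate 1 was left out and at 0.64 when shYthdf2 replicate 2 was, and Trp53 itself had one of 0.02 (edgeR adjusted p = 0.949). Of the 75 other genes of all lists that were tested, the one most like Bcl2l1 over the 4 libraries was Mdm2, at a Euclidean distance of 0.0758 between log2 CPM values centred on each gene's mean. Mdm2 was measured at 155 and 149 CPM in shScramble and at 247 and 211 CPM in shYthdf2, so like Bcl2l1 it was highest in shYthdf2 replicate 1. Over only 4 libraries this is a description of level.

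Of 62 genes in 6 lists around the family, 58 were tested, and edgeR called 0 higher and 2 lower in shYthdf2, beside 2.43% and 1.49% of all genes. At an unadjusted p under 0.05, 6 were higher and 7 lower, near the 11.0% and 9.80% of all genes. DESeq2 called 2 higher and 2 lower, beside 5.55% and 4.22% of all genes it tested. The limma-voom fit called 0 higher and 2 lower, beside 2.01% and 1.38% of all genes. Their median log2 fold change was 0.03. The 2 that fell are regulators of members: Pim1, a kinase that phosphorylates BAD, and Itpr1, a calcium channel of the endoplasmic reticulum that BCL2 and BCL-XL bind. Pim1 went from 217 and 240 CPM in shScramble to 117 and 133 CPM in shYthdf2 (log2 fold change -0.87, SE 0.11 by edgeR, adjusted p = 0.00528). Itpr1 went from 93.5 and 103 CPM to 39.5 and 55.5 CPM (log2 fold change -1.05, SE 0.16 by edgeR, adjusted p = 0.00999). For both genes the groups were far apart, and both passed in all 13 other settings.

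Among the 15 regulators, the median log2 fold change was -0.01. Fbxw7, a subunit of a ubiquitin ligase that targets MCL1, is named after its values were seen: it was measured at 74.9 and 62.0 CPM in shScramble and at 101.6 and 93.9 CPM in shYthdf2 (log2 fold change 0.51, SE 0.12 by edgeR, adjusted p = 0.0517), and passed in 8 of 13 other settings.

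No gene of the death receptor arm, which feeds into BID, passed the test. All 7 genes of the arm had positive estimates (50.2% of all genes did), 3 were higher at an unadjusted p under 0.05 (11.0% of all genes) and 0 passed the adjusted threshold (edgeR), with a median log2 fold change of 0.32. Of the arm, DESeq2 called Tnfrsf1a as higher (5.55% of all genes it tested were), and limma-voom called 0. Outside the arm, DESeq2 also called the regulator Fbxw7, and limma-voom did not. Tnfrsf1a, the main TNF receptor, was measured at 6.83 and 7.52 CPM in shScramble and at 13.5 and 10.8 CPM in shYthdf2 (log2 fold change 0.76, edgeR adjusted p = 0.0770), and passed in 4 of 13 other settings. Fas, the receptor of FAS ligand and a known p53 target, had 20 and 10 reads in shScramble and 49 and 36 reads in shYthdf2 (log2 fold change 1.46, edgeR adjusted p = 0.158). For both genes the shYthdf2 libraries were the higher ones.

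Downstream of the mitochondria, none of the 15 apoptosome and caspase genes passed in edgeR. At an unadjusted p under 0.05, 0 were higher and 1 lower, beside 11.0% and 9.80% of all genes. Casp9, the initiator caspase of the apoptosome, had a log2 fold change of -0.39 (edgeR adjusted p = 0.205), and Dffb, the nuclease that cuts DNA in apoptosis, one of 0.41 (edgeR adjusted p = 0.249). Of 5 caspase inhibitors 0 passed and 0 had an unadjusted p under 0.05, with Birc5 (survivin) at 0.15 and Birc2 at -0.15 on the log2 scale. Of 8 genes that shape the mitochondrial membrane 0 passed, and 1 was higher and 1 lower at an unadjusted p under 0.05 (11.0% and 9.80% of all genes). Those were the fusion gene Mfn2 (0.39, edgeR adjusted p = 0.0978) and the fission gene Dnm1l (-0.29, edgeR adjusted p = 0.200).

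Of the 12 other BCL2 relatives 8 were tested, 0 passed in edgeR, and the median log2 fold change was -0.29. At an unadjusted p under 0.05 (edgeR), 0 were higher and 2 lower, beside 11.0% and 9.80% of all genes. Bcl2l13, a mitophagy receptor of the outer mitochondrial membrane, had a log2 fold change of -0.38 (edgeR adjusted p = 0.101). Bnip3, a hypoxia-induced mitophagy receptor, was measured at 8.05 and 27.0 CPM in shScramble and at 4.94 and 8.41 CPM in shYthdf2 (log2 fold change -1.39, edgeR adjusted p = 0.130). It passed in 5 of 13 other settings and was at -0.27 without shScramble replicate 2, the library with the highest level. Replicate 2 of Bnip3 was the higher library in both groups, as for Bcl2l2 and Bmf, and the groups overlap. Bcl2a1a, Bcl2a1b and Bcl2a1d, the A1 genes of blood cells, had 0 reads in every library.

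**Figure D5:**
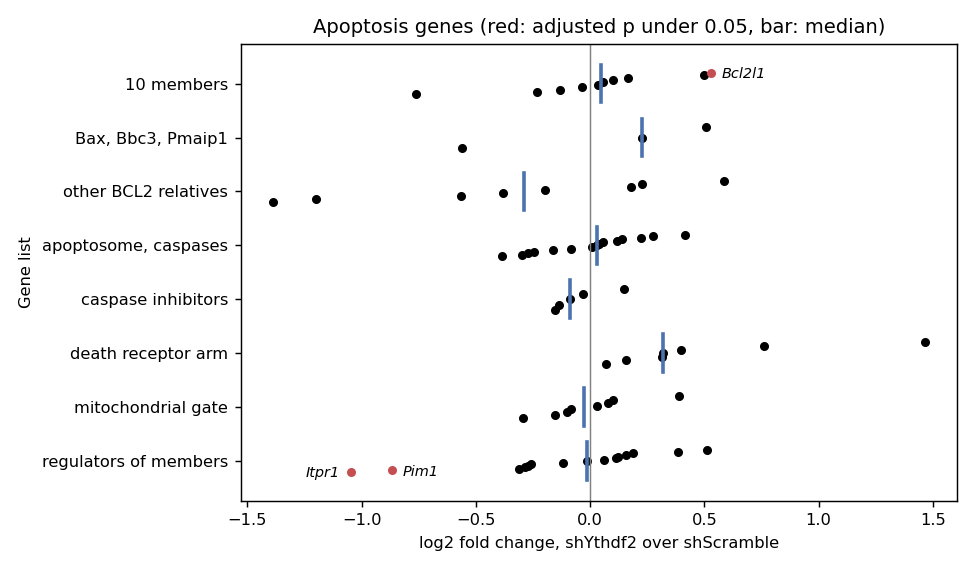
Each point is the edgeR log2 fold change of a tested gene, by list, with the median of each list as a blue bar and genes with an adjusted p under 0.05 in red. Bcl2l1 (0.53) is the red point among the members, and Pim1 (-0.87) and Itpr1 (-1.05) are the red points among the regulators.

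Since YTHDF2 reads m6A, the members' transcripts were searched for GGACT, the most frequent form of the motif at which m6A is laid down, in the coding sequence and 3′ UTR of 1 transcript per gene. A match shows only that these letters are there, since methylation was not measured in these libraries. Mcl1 held the most per length, 2.39 per kb in 8 matches, and 92.7% of coding genes had as many per kb or fewer. Bad (2.02), Bmf (1.95), Bak1 (1.71), Bok (1.61) and Bid (1.49 per kb) also lay above the median of 0.99 per kb over 21743 coding genes. Bcl2l1 (0.92), Bcl2l2 (0.91), Bcl2 (0.86) and Bcl2l11 (0.83 per kb) lay just below it.

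Both matches of Bcl2l1 are shown because it is the member that rose, with the nearest match past the stop codon of Mcl1 for comparison and GGACT in capitals. The 3′ UTR match of Bcl2l1 lies 878 bases and that of Mcl1 19 bases past the end of the coding sequence.
Bcl2l1, coding sequence: gaagagaataGGACTgaggccccag
Bcl2l1, 3′ UTR: cagggtcaagGGACTctggcctcag
Mcl1, 3′ UTR: gtgcaataggGGACTcttaaagctc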

How the data were processed

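Poly(A)+ RNA of 4 E14 ESC libraries was measured by stranded (dUTP) paired-end RNA-seq, and groups and replicate numbers came from the sample titles. The authors deposited 1 table of raw counts per gene, not normalized. The file headers name featureCounts 2.0.3 with RefSeq exons of mm10 as its annotation, and the submitters' processing notes name fastp 0.19.4, HISAT2 2.2.1 and DESeq2 1.40.2. Reads and not pairs were counted, without the strand option, and multimapping and multi-gene reads were left out. Even numbers made up 61.5% to 63.9% of the counts from 1 to 20, so most fragments count as a pair of reads and halved counts were tried. The table held 0 other columns of per-sample values.

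Counts were tested with edgeR 4.0.16 (R 4.3.3): TMM scaling, filterByExpr (minimum count 10, minimum total 15), quasi-likelihood F test over all 4 libraries, Benjamini-Hochberg adjustment over 18341 genes. DESeq2 1.42.0 and limma 3.58.1 were alternatives, listed with the others in the closing section. CPM are TMM-scaled. The code was tested on simulated data. SE came from the fold change and its F value, intervals are at 95%, and the limits that a count of 0 allows cover counting error only. Per-library differences used log2(CPM + 0.5).

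Members and lists were chosen with earlier results of these data known. Named were all members, Ythdf2, the 3 p53-regulated relatives, the 4 p53 genes, and of each other list the genes past the threshold plus the 2 with the lowest unadjusted p. Fbxw7 and Bcl2l10 were named after their values were seen. For each member past the threshold, the most similar gene was named. BH3 stretches, GGACT (coding strand only) and shared 150-base stretches were read from GENCODE M21. Markers of fibroblasts sum to 17.2 to 17.9 CPM in shScramble and 9.54 to 15.6 CPM in shYthdf2 (Dcn at 0), of primitive endoderm to 15.0 and 12.0 to 19.5 CPM, and of trophoblast to 83.6 to 90.6 and 86.3 to 112 CPM. Tfap2c carries the trophoblast sum, while Gata3, Krt8 and Krt18 were at 51.1%, 56.8% and 46.1% of their shScramble levels (groups apart, adjusted p 0.108 to 0.134 by edgeR).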

Additional observations from a re-analysis of the deposited data

How the results depend on the processing

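Alternatives were RLE, upper quartile and library-total scaling, no filter beyond 1 read, a filter at a mean of 1 CPM, DESeq2, limma-voom, halved counts, the replicate number as a block, and leaving out each library. Where 1 library is left in a group, it is assumed to vary like the other group. Genes higher in shYthdf2 numbered 445 and became 1095 without the filter, 808 in DESeq2, 1851 with the block and 534 to 1175 with a library left out. Genes lower numbered 273 and became 843, 615, 1674 and 300 to 1113. The labels give the numbers no shared source, and with 2 pairs (r = 0.290 between deviations of same-numbered libraries over 18341 genes) the block result is given only as a value. Members higher numbered 1, 2 with the block, 0 under the study's criteria (DESeq2 p of 0.05 or less and an absolute log2 fold change of 1 or more) and 0 to 1 with a library left out, while 0 members were lower in every setting run. Of the other apoptosis genes 0 were higher, 1 with library totals, 3 without the filter, 2 in DESeq2, 1 with halved counts, 6 with the block and 0 to 3 with a library left out. The 2 lower became 9 with the block and 2 to 8 with a library left out. The ratio of pro-survival to pro-death sums differed by 0.054 (log2), by 0.108 without division by length, by 0.057 without extra contigs (chosen after seeing the data) and by 0.0074 to 0.100 with a library left out. The causes of these shifts were not tested.

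Signs turned for some members and for Trp53, and the cause was not tested. With a library left out, the log2 fold change ran from -0.30 to 0.26 for Bcl2l2 (positive without shScramble replicate 2 or shYthdf2 replicate 1, at 0.18), from -0.55 to 0.17 for Bmf (positive without the same libraries, 0.0063 without shYthdf2 replicate 1) and from -0.094 to 0.15 for Trp53 (negative without either of these, -0.09 without shYthdf2 replicate 1). It ran from -0.0081 to 0.22 for Mcl1, -0.082 to 0.17 for Bak1 and -0.079 to 0.46 for Bok, negative only without shScramble replicate 1, and from -0.023 to 0.13 for Bid, negative only without shYthdf2 replicate 1. Between the libraries numbered 2 (chosen after seeing the data), Bak1 was at -0.080, Bok at -0.16 and Bid at -0.016. Bcl2l1 and Bad were positive, and Bcl2 and Bcl2l11 negative, in every setting that tested them. Bad passed with the replicate block (edgeR adjusted p = 0.0307) and in no other setting. Genes more abundant than Bcl2l1 with estimates near its own (Bax and Fbxw7, 0.51 each) did not pass. Bcl2, with 5 to 12 reads per library, did not pass either, and the part of depth in this was not tested.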

Other observations

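Bcl2l10, a germline-expressed relative of the family named after its values were seen, had 0 reads in both shScramble libraries and 8 and 12 reads in shYthdf2 replicates 1 and 2. The filter on low counts removed it. Most fragments gave a pair of reads, so these reads stand for fewer fragments, and no fold is given. Without the filter edgeR gave an adjusted p of 0.0498, and DESeq2 gave an unadjusted p of 0.0128 and no adjusted p. The 6 markers of the 2-cell-like state had a higher sum in the same libraries (43.6 and 112 CPM, beside 23.3 and 35.2 CPM in shScramble). Their part in this difference was not tested. Of these markers, Usp17la passed in edgeR (adjusted p = 0.0290) and the others did not, and Zscan4d overlapped between the groups.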
